A study of Mus musculus with 39 samples.

Results

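Trimethylation of histone H3 at lysine 27 (H3K27me3) was compared between granule cell nuclei of postnatal day 21 (P21) and postnatal day 12 (P12) mouse cerebellum, at the transcription start sites (TSS) of all genes in a deposited count table. The comparison used 9 of the 39 libraries of the series, 5 H3K27me3 libraries of P21 and 4 of P12, chosen by their labels. Both groups were wild-type C57Bl/6J mice with no treatment. At both ages nuclei were fixed with formaldehyde, stained for NeuN and NeuroD1, sorted as double-positive nuclei and sonicated alike, and chromatin was precipitated and sequenced (ChIP-seq). Per the titles of the input libraries, replicates 1 and 2 of each stage share an input and later replicates each have their own. The labels do not say how many animals went into a library or whether replicates came from separate animals, so p-values measure the spread between these libraries. Of 24045 TSS in the table, 16951 had enough reads to be tested.

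H3K27me3 is written by Polycomb repressive complex 2 and marks promoters, mostly rich in CpG, of genes that are held silent. Granule cells are glutamatergic neurons: their progenitors divide under Sonic hedgehog in the external granule layer during the first postnatal weeks, then leave the cell cycle, migrate inward and mature, exchanging juvenile for adult channels and synaptic receptors. The interval from P12 to P21 covers late migration and maturation.

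The libraries held 264093 to 910778 reads at TSS for P21 and 432257 to 1052849 for P12, with a median of 7 to 19 and 11 to 23 reads per TSS. The ratio of the 95th percentile to the median count, a measure of contrast between marked and unmarked TSS, ranged from 5.00 to 10.3 at P21 and from 5.65 to 12.9 at P12. Within the shared-input libraries it averaged 5.12 at P21 and 6.05 at P12, and within the own-input libraries 8.47 and 10.1. Over all 9 libraries the stages did not differ by an exact two-sided permutation test (p = 0.651), yet the lower contrast at P21 within both arrangements means that a general fall at strongly marked TSS and a lower contrast of the P21 libraries cannot be told apart. For that reason every result below is given with the usual scaling (trimmed mean of M-values, TMM) and, where it matters, with trended scaling, which removes any shift shared by TSS of similar level. Replicates 1 and 2 of a stage were each other's closest pair, with a chi-square per degree of freedom of 1.33 at P21 and 1.19 at P12 against 2.22 to 5.68 in the other pairs. They differed by more than sampling noise and were kept as separate libraries. That difference does not show that they are independent, and p-values that count them separately may be too small. Counts over all TSS with the pair of each stage summed to 1 library are therefore given below.

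The labelled cell type was checked at 11 granule cell markers. All 11 at P21 and 8 of 11 at P12 were at the level of unmarked promoters, taken as at most 2 times the median over 77 ribosomal protein TSS (12.7 at P21 and 12.8 at P12 in CPM, the read count relative to the TMM-scaled library size). 8 of the 11 carried a peak of H3K4me3, the mark of active promoters, in both libraries of each stage. Neurod1, a gene of the sort itself, was listed at 0 in every library of both marks and gives no information, though it is in both counts at the unmarked level. Only 4 of the 11 markers had enough reads to be tested. Of all tested TSS, 31.6% at P21 and 31.5% at P12 lay at the unmarked level, so low values at these markers are a weak check of cell type. Levels in CPM are relative within a library, and in bulk nuclei fewer nuclei with the mark and less mark per nucleus cannot be told apart.

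Late loss was more frequent than late gain with TMM scaling. Of the TSS tested, 1287 (7.59%) differed between the stages. At P21, 939 TSS were lower (5.54%) and 348 were higher (2.05%) than at P12, by edgeR's quasi-likelihood test with stage and input arrangement in the model and a Benjamini-Hochberg (BH) adjusted p below 0.05 over all TSS tested. The median log2 fold change was -1.06 among the lower TSS and 0.89 among the higher, against 0.05 over all TSS tested. Losses also reached further: 518 of the lower TSS fell by at least 1 on the log2 scale, 108 by at least 2 and 9 by at least 3, against 103, 3 and 0 of the higher TSS past the same sizes. In 367 of the lower and 151 of the higher TSS the libraries of both ages did not overlap at all, where 2.55% and 2.22% of all TSS tested showed such separation in the same directions.

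Within the 2 P21 and 2 P12 libraries that share an input, 935 of the 939 lower and all 348 higher TSS changed in the direction of the pooled result, and within the 3 P21 and 2 P12 libraries with their own inputs all 939 and 348 did. These arrangements are part of the pooled fit, so their agreement is a description. The median log2 fold changes of the lower TSS were -1.11 with shared and -1.02 with own inputs, and of the higher TSS 0.96 and 0.89. A test of the difference between arrangements (edgeR, interaction term) found none of 16951 TSS past the threshold (0 called, 265 with an unadjusted p below 0.05). With so few libraries in each arrangement this test has little power, so it does not show that the arrangements agree.

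The balance of loss and gain depended on scaling, and the counts on single libraries. Trended scaling gave 788 lower (4.65%) and 383 higher (2.26%), of which 704 and 211 were among the calls above. Scaling by library totals shifted the median of all TSS to 0.20 and gave 757 lower and 784 higher TSS, so that 49.1% of calls were losses against 73.0% with TMM. With replicate numbers as a block, 1819 TSS were lower (11.5%) and 656 higher (4.14%). Without P12 replicate 1, 2 or 3, in this order, 623, 581 and 420 TSS were lower and 195, 179 and 182 higher, and without P21 replicate 1, 178 were higher. With replicates 1 and 2 of each stage summed as 1 library, 608 were lower and 125 higher.

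**Figure D1:**
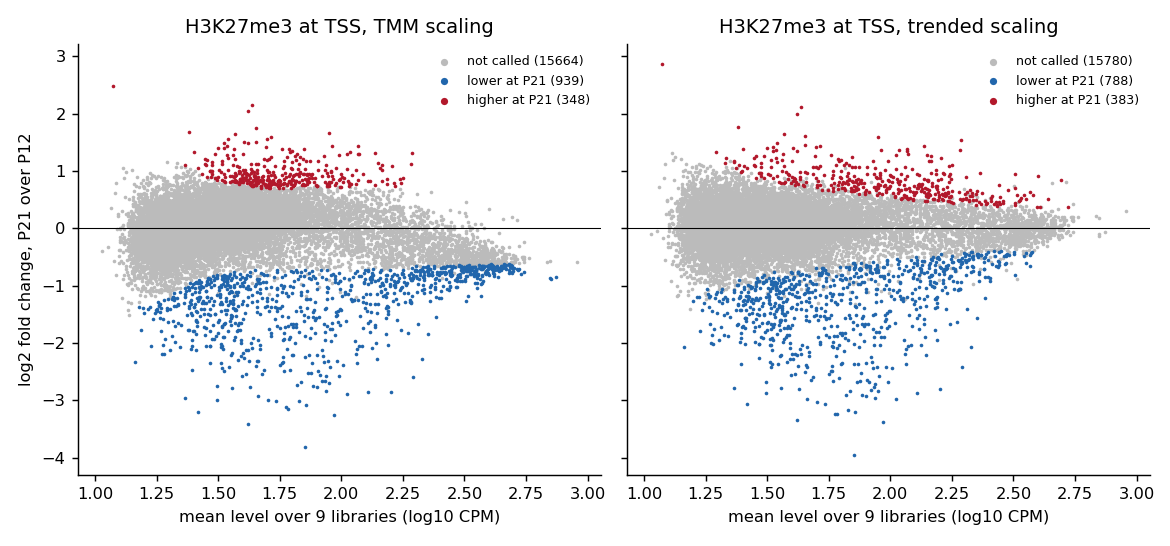
Each point is 1 of 16951 TSS, by its mean H3K27me3 level over 9 libraries (log10 CPM) and its log2 fold change of P21 over P12, with TMM scaling on the left and trended scaling on the right. Blue points were called lower at P21 (939 and 788) and red points higher (348 and 383): the deep losses lie at middle levels in both panels, whereas the downward bend at the highest levels is seen with TMM scaling alone.

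Promoters with late loss had a higher CpG content in the median than promoters with late gain. In the 250 bases before the annotated start (GRCm38.p6), the median ratio of observed to expected CpG was 0.63 at the 938 lower TSS with a sequence, 0.37 at 347 higher TSS and 0.31 over 16902 tested TSS. Marked promoters that were not called are the closer comparison: 3041 TSS had a peak in at least 2 P12 libraries and were not called, and their median was 0.44. Not called is not the same as unchanged, and the median log2 fold change of these TSS was -0.11. The replicate block called 1819 TSS lower, 917 of them among the 939, so this group may hold further falls. A ratio of at least 0.6, a usual limit for CpG islands, was found at 53.1% of lower, 19.6% of higher and 32.0% of the marked TSS not called. It was found at 25.3% of all tested TSS and 36.8% of all 23978 genes with a promoter sequence. The 103 TSS that gained by at least 1 on the log2 scale had a median of 0.46. The annotated start may differ from the TSS at which reads were counted, so some of these sequences may lie elsewhere.

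The following promoters are examples, 4 with late loss and 4 with late gain, chosen with their values known to show both roles and sequence. They are the RefSeq sequences of GRCm38.p6, written 5′ to 3′ on the gene's strand, with each CG in capitals. Of the 74 genes named by the rule, 30 had a RefSeq promoter that begins at the annotated start. Insyn1, an inhibitory postsynaptic protein, Egr4, an immediate early transcription factor, Wnt7a, a ligand that granule cells send to mossy fibre endings, and Hcn2, a hyperpolarization-activated cation channel, lost the mark.
Insyn1, chr9:58488353-58488602, plus strand, 30 CpG: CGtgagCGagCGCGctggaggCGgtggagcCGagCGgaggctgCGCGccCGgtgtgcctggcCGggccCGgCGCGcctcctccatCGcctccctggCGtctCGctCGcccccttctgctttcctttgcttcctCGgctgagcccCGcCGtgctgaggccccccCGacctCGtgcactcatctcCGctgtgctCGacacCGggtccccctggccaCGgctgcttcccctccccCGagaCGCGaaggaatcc
Egr4, chr6:85513590-85513839, minus strand, 28 CpG: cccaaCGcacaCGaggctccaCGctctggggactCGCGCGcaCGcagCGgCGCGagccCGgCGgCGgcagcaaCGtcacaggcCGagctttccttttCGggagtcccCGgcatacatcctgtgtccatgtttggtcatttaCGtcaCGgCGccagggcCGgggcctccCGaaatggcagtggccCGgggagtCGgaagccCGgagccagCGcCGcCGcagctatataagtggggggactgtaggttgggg
Wnt7a, chr6:91411354-91411603, minus strand, 34 CpG: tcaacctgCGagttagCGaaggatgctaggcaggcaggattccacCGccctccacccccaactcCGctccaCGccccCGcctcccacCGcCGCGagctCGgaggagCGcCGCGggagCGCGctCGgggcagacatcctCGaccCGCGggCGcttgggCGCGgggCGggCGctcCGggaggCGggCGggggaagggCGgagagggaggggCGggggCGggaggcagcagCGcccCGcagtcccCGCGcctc
Hcn2, chr10:79716384-79716633, plus strand, 16 CpG: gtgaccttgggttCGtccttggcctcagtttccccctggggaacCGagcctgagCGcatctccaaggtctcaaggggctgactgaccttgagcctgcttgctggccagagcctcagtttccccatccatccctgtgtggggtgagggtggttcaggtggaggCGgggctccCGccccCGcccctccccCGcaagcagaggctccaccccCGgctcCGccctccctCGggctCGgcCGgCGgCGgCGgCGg
Marcksl1, an actin-binding protein of the MARCKS family, Mycn, the hedgehog-induced transcription factor of progenitors, Egfr, the epidermal growth factor receptor, and Psat1, an enzyme of serine synthesis, gained it.
Marcksl1, chr4:129513331-129513580, plus strand, 12 CpG: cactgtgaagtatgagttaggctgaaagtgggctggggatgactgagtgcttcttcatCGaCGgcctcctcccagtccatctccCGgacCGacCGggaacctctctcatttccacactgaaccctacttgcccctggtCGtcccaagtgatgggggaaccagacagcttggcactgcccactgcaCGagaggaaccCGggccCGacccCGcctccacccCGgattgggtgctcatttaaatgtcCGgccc
Mycn, chr12:12941837-12942086, minus strand, 11 CpG: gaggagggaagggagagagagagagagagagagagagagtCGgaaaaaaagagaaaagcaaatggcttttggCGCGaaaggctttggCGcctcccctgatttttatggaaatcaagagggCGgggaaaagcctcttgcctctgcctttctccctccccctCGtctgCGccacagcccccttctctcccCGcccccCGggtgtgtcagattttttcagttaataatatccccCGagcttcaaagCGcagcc
Egfr, chr11:16751953-16752202, plus strand, 11 CpG: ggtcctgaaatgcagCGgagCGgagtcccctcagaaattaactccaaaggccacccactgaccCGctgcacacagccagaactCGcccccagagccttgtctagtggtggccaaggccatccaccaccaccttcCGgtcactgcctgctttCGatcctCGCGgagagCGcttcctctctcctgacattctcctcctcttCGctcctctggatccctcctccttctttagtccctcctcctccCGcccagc
Psat1, chr19:15925060-15925309, minus strand, 16 CpG: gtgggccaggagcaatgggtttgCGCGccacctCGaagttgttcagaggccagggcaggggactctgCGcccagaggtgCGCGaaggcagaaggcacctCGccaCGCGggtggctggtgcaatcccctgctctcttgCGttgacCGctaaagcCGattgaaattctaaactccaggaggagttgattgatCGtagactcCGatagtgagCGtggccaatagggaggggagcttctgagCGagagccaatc

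These examples set the directions further apart than the whole set: over all 30 promoters, 18 with loss held 5 to 40 CpG (median 18.5) and 12 with gain 3 to 17 (median 9.5). Pax2, Tmem163 and Bdnf, with loss, held 5, 8 and 9, and Kit, with gain, held 17. A pair of short motifs was searched on both strands of the same windows. CAGATG, an E-box of the NeuroD type, was present at 9.91% of lower, 16.1% of higher, 13.9% of marked TSS not called, 15.5% of all tested TSS, and 13.7% of all promoters. TTGGCA, part of a nuclear factor I site, was present at 8.10%, 13.5%, 10.3%, 12.5% and 11.8% in the same order. The shares at higher TSS were thus near those of all tested TSS. The motifs can share the letters CA where they adjoin, and both contain A and T, so their shares also move with base composition: the median GC content was 60.8% at lower and 52.8% at higher TSS.

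Large losses were found at genes of synapses, excitability and activity response. Insyn1 (chromosome 9, GRCm38.p6) had 0, 3.0, 12.7, 22 and 1.76 CPM at P21, against 29.1, 50.3, 162 and 93.6 CPM at P12, without overlap, and fell by 3.41 on the log2 scale. Nptx1, a pentraxin that clusters AMPA receptors, had 0, 12, 13.9, 16.2 and 19.3 CPM at P21, against 67.2, 85.8, 142 and 95.9 CPM at P12. Its highest P21 library lies below its lowest P12 library by several fold. The log2 fold change was -2.99 ± 0.28 (SE, BH-adjusted p = 1.83e-14 by edgeR), and -3.04 with trended scaling.

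Nr4a1, an orphan nuclear receptor induced within minutes of activity, had 3.40, 3.0, 16.5, 23.5 and 21.1 CPM at P21, against 69.5, 107, 190 and 112 CPM at P12. The groups stood well apart and the log2 fold change was -3.16 ± 0.28 (SE, BH-adjusted p = 5.82e-15 by edgeR). Other genes among the largest falls were Rgl3, an exchange factor for Ral GTPases, Ankrd34a, the adhesion molecules Cdh22 and Pcdh1, the kinase Rps6ka1, Pacsin3, an endocytic adaptor, Car11, a catalytically inactive carbonic anhydrase relative, and Tmem163, a zinc transporter of synaptic vesicles. Their log2 fold changes ran from -3.26 (Rgl3) to -2.88 (Tmem163). Insyn1, Nptx1, Nr4a1 and all of these others except Tmem163 reached the level of unmarked promoters at P21. Tmem163 stayed above it at 29.0 ± 11.3 CPM at P21, against 200.5 ± 99.5 CPM at P12 (SD, n = 5 and 4).

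Across all losses, 314 of 939 (33.4%) ended at P21 at or below 2 times the ribosomal median (25.5 CPM), where 31.6% of all tested TSS lay. Among these, the highest P12 levels were those of Rgl3 at 185 CPM, Rtn4rl1, a relative of the Nogo receptor, at 164 CPM, and C1qtnf4 at 151 CPM. At P21 the same 3 TSS averaged 19.4, 24.4 and 22.3 CPM. The remaining losses were partial by this limit. With 3 times the ribosomal median as the limit, 431 losses (45.9%) counted as complete, where 52.1% of all tested TSS lay.

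Gains were smaller than losses. Dclk1, a doublecortin-like kinase of microtubules in growing and migrating neurons, had 102, 86.9, 160, 132 and 160 CPM at P21, against 42.6, 31.4, 47.4 and 36.3 CPM at P12. All 5 P21 libraries exceeded all 4 of P12, with a log2 fold change of 1.66 ± 0.25 (SE, BH-adjusted p = 5.13e-07 by edgeR). Mycn had 40.8, 36, 96.4, 52.9 and 61.5 CPM at P21, against 11.2, 10.5, 34.2 and 19.9 CPM at P12, also without overlap, and a log2 fold change of 1.5 ± 0.27 (BH-adjusted p = 1.94e-05 by edgeR).

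Marcksl1 and Sox9 had larger fold changes, with overlap between stages when both input arrangements are pooled. Marcksl1 had 17.0, 36, 119, 113 and 50.9 CPM at P21, against 4.48, 6.28, 21.1 and 22.2 CPM at P12. P21 replicate 1, a shared-input library, lies below both own-input P12 libraries (the last pair), but within either arrangement P21 lay above P12. Its log2 fold change was 2.16 ± 0.29 (BH-adjusted p = 1.78e-08 by edgeR). Sox9, a transcription factor of glia and neural progenitors, had 13.6, 33.0, 90.0, 73.5 and 111 CPM at P21, against 6.72, 8.38, 23.7 and 17.6 CPM at P12, and a log2 fold change of 2.04 ± 0.28 (BH-adjusted p = 3.01e-08 by edgeR). Sox9 showed the same pattern of overlap, and had too few reads to be tested without P21 replicate 3 or 4. Both started at the level of unmarked promoters.

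The 12 largest separated gains also held Abr, a regulator of small GTPases, Pag1, a membrane adaptor of Src-family kinases, Plekha6, Atp6v1e2, a proton pump subunit, Psat1, Trpm5, a cation channel of taste cells, Unc93a2, Egfr and the histone genes H2bc7 and H3c2. Their log2 fold changes ran from 1.34 (Egfr) to 2.48 (H2bc7). H2bc7 rested on 47 reads at P21 and 8 at P12 in all, and H2bc7 and H3c2 belong to a multigene family of near-identical histone copies, so reads may be split among copies and both are uncertain. Of the 348 gains, 72 (20.7%) started at P12 at or below the unmarked level (25.6 CPM), where 31.5% of all tested TSS lay, and 199 did with the wider limit of 3 times the ribosomal median. The wider limit held 57.2% of gains, near the 57.5% of all tested TSS.

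**Figure D2:**
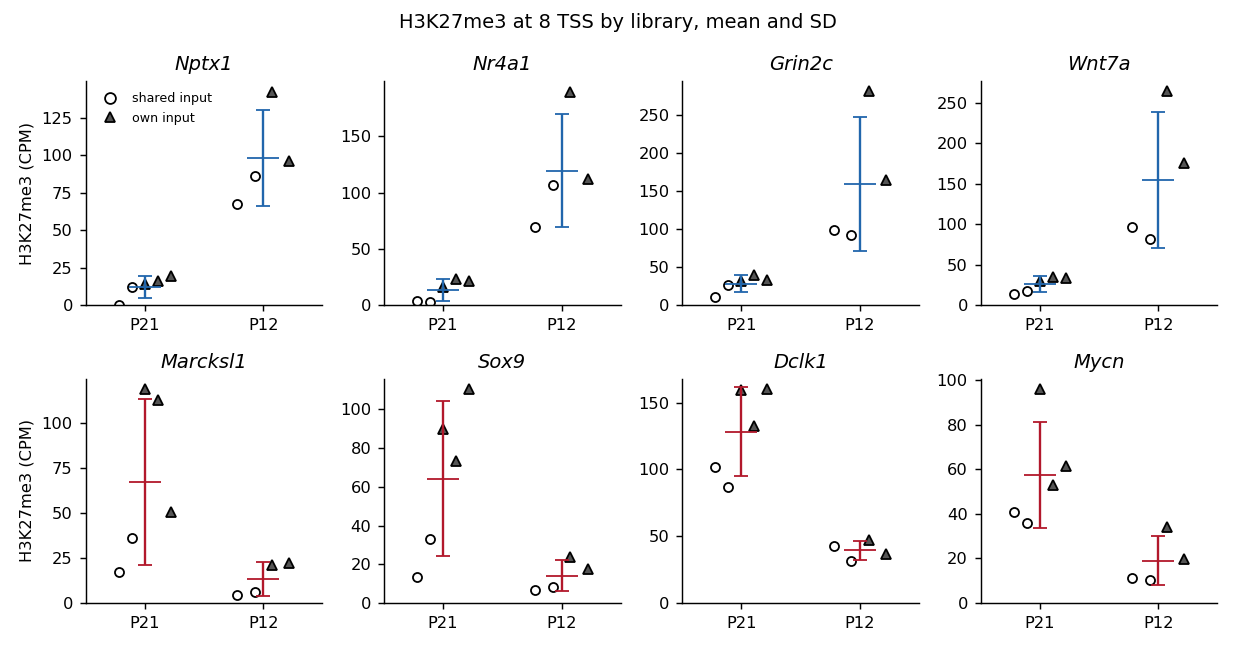
H3K27me3 in CPM at 8 TSS in each library, P21 left of P12, with open circles for libraries that share an input, triangles for libraries with their own, and coloured bars for the mean and SD (n = 5 and 4). The top row shows losses, with every P21 library below every P12 library, and the bottom row gains, of which Dclk1 and Mycn separate fully and Marcksl1 and Sox9 separate within each arrangement.

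Genes of mature granule cells and synapses held more falls than rises. Of 47 tested members, 14 were lower (29.8%, against 5.54% of all TSS) and 1 higher, with a median log2 fold change of -0.26. The falls included both NMDA receptor subunits that mark maturation, Grin2c and Grin2a, and the obligatory subunit Grin1. Grin2c, the granule cell subunit of the adult cerebellum, had 10.2, 27, 31.7, 39.7 and 33.4 CPM at P21, against 98.6, 92.1, 282 and 165 CPM at P12, with no overlap and a log2 fold change of -2.57. Grin1 and Grin2a fell by 1.40 and 0.94 on the log2 scale. Nptx1 (-2.99), Car11 (-2.92), the scaffold Shank1 (-2.11), the vesicle calcium sensor Syt2 (-2.04), the tonic GABA-A receptor subunit Gabrd (-1.45) and the glutamate receptor Grm4 (-1.44) fell as well. The kainate receptor gene Grik4 was the member that rose, with a log2 fold change of 1.21. Trended scaling gave the same counts of 14 and 1, whereas a fit of only the TSS with an H3K27me3 peak gave 9 lower and 6 higher. The replicate block gave 14 lower and 2 higher. For all lists, the 5.54% over all TSS is a low reference, since only 23.2% of tested TSS had an H3K27me3 peak in at least 2 P12 libraries. Of those 3927 TSS, 772 were lower. Such peaks lay at 22 of the 62 synapse genes, but at 32 of 50 progenitor genes and 15 of 16 interneuron markers described below.

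Ion channel genes gave 18 lower (32.1%) and 2 higher of 56, with a median of -0.46 (16 lower, 4 higher and a median of -0.22 with trended scaling). Hcn2 had 3.40, 3.0, 16.5, 13.2 and 8.78 CPM at P21, against 38.1, 25.1, 119 and 55 CPM at P12. Its libraries separated fully and the log2 fold change was -2.76. Falls covered several families: the leak potassium channel gene Kcnk12 (-2.31), the axonal potassium channel gene Kcna2 (-1.89), and the T-type calcium channel genes Cacna1g (-2.05) and Cacna1i (-1.87). Those that rose were Kcnq5 (0.95), a voltage-gated potassium channel gene, and Kcnn3 (0.82), a calcium-activated potassium channel gene. The number of channel genes called higher was 1 without P12 replicate 1 or 4 or P21 replicate 1 or 5, and 4 without P21 replicate 4, and it was 5 with the block, 0 with replicates 1 and 2 summed and 4 with only TSS that hold a peak.

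Of 23 immediate early and activity genes, 9 were lower (39.1%) and 0 higher, with a median of -0.49, and trended scaling gave the same counts. Egr4 had 13.6, 24.0, 48.2, 54.4 and 45.7 CPM at P21, against 103, 151, 274 and 200 CPM at P12, with no overlap and a log2 fold change of -2.38. The nuclear receptor gene Nr4a3 (-2.05), the neurotrophin gene Bdnf (-1.37), the neuronal activity factor Npas4 (-1.24), and the factors Klf2 (-1.12) and Egr3 (-1.03) also fell. With any 1 library left out, 10 to 15 synapse, 15 to 20 channel and 7 to 10 activity genes were called lower.

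Genes of progenitors and the hedgehog pathway split in both directions, with 9 lower (20.9%) and 3 higher (6.98%) of 43. Trended scaling gave 9 lower and 6 higher. The members that rose with TMM were Mycn, Ccnd2 (1.18), the D-type cyclin of granule cell progenitors, and Sox11 (0.74), which did not pass with trended scaling. Ccnd2 had 74.8, 74.9, 127, 72.0 and 132 CPM at P21, against 42.6, 35.6, 57.9 and 30.4 CPM at P12, with no overlap. The members that fell were Cdon (-1.72), a hedgehog co-receptor, Hes5 (-1.50), a Notch target, Barhl2, Pax6, Igf2bp1, Ccnd1, Id1, and Eomes and Lmx1a, transcription factors of unipolar brush cells and the rhombic lip. The lower count was 4, 3 and 2 without P12 replicates 1, 2 and 3 and 5 without P21 replicate 1, the replicate block gave 15 lower and 8 higher, and replicates 1 and 2 summed gave 4 and 2. Among 26 cell cycle genes, 2 were lower (7.69%) and 1 higher (3.85%), near the 5.54% and 2.05% of all TSS tested. The lower members were Cdkn2a and Cdkn2b, inhibitors of cyclin-dependent kinases, and the higher was Cdk6. Cdkn2b did not pass with trended scaling (-0.16). Neither kind of call was made without P12 replicate 1, 2 or 3 or P21 replicate 2, none were lower without P21 replicate 1, none were higher without P12 replicate 4 or P21 replicate 3, and 2 were higher without P21 replicate 4 or 5. Trended scaling gave 1 lower and 4 higher, the block 2 lower and 6 higher, and replicates 1 and 2 summed 0 of either.

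Axon guidance, migration and immature neuron genes also moved both ways, with 9 lower (18%) and 4 higher (8.0%) of 50. The repellent Slit3 had 10.2, 21, 40.6, 47.0 and 45.7 CPM at P21, against 74.0, 54.4, 311 and 206 CPM at P12. Its groups did not overlap and its log2 fold change was -2.41. The receptor genes Epha8 (-2.33), Plxna1 (-2.20), Plxna4 (-0.99), Plxnd1 (-0.95) and Unc5a (-0.86), the ligand Sema3f (-1.55), Cntn4 and Bdnf fell. Plxnc1 (1.19), the juvenile tubulin gene Tubb2b (1.10), Cdh13 (0.85) and Efna5 (0.80) rose, the last pair not with trended scaling. The lower count was 4 without P12 replicate 3, and the higher count was 0 without P21 replicate 3, 1 without P21 replicate 1 or any P12 replicate, 2 without P21 replicate 5 and 8 with the replicate block. With replicates 1 and 2 summed, 6 were lower and 1 higher.

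Of 44 Polycomb, Trithorax and demethylase genes only 16 had enough reads to be tested, and 3 fell (18.8%, against 5.54% of all TSS tested). Pcgf5, a component of variant Polycomb repressive complex 1, had 13.6, 44.9, 141, 109 and 79.0 CPM at P21, against 91.9, 69.1, 358 and 242 CPM at P12. The stages overlapped over all libraries but not within either input arrangement, and the log2 fold change was -1.43. Unlike most losses it was not high at P7, where it averaged 72.4 ± 30.7 CPM (SD, n = 5). Cbx7, a reader of the mark in canonical Polycomb repressive complex 1, changed by -1.42 and Phf19, an accessory subunit of Polycomb repressive complex 2, by -0.80. Neither passed the threshold without P12 replicate 3, with adjusted p-values of 0.164 and 0.187 by edgeR, and Phf19 also missed it without P12 replicate 1 (0.0557) or 2 (0.113). The list's lower count was 1 without that library and 5 without P21 replicate 4.

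**Figure D3:**
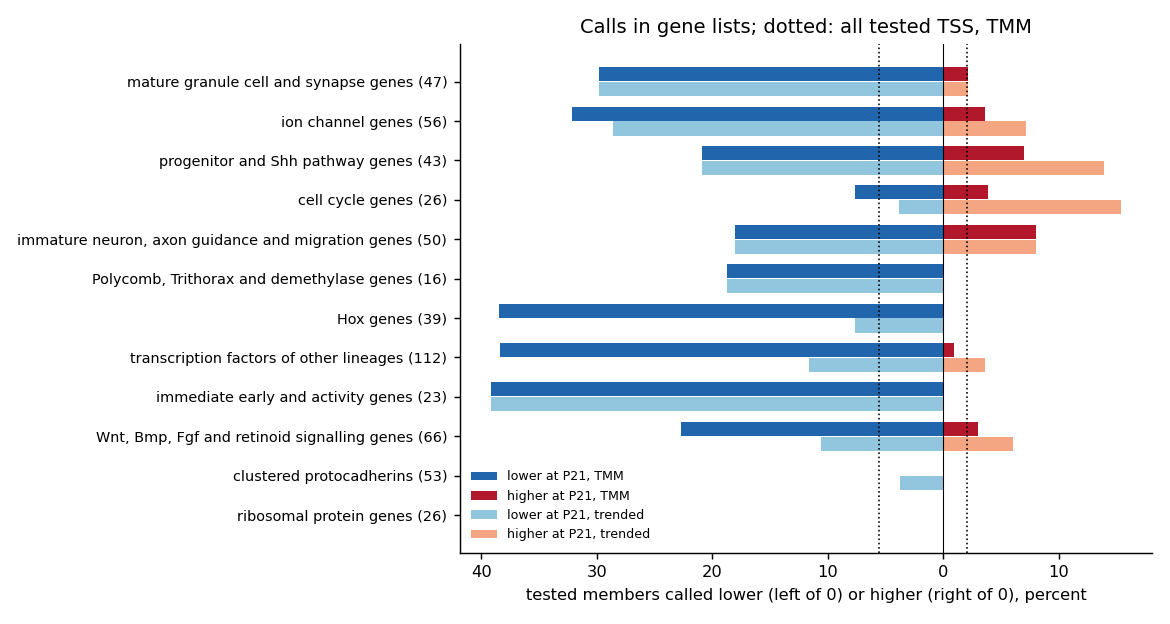
Percent of the tested members of 12 gene lists (number tested in brackets) called lower at P21 (left of 0) or higher (right of 0), in dark colours with TMM and pale colours with trended scaling; dotted lines mark 5.54% lower and 2.05% higher over all tested TSS. Synapse, ion channel and immediate early genes had similar shares of losses under both scalings, whereas Hox genes and transcription factors of other lineages had fewer with trended scaling.

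The fall at classical Polycomb targets depended on scaling. Of 39 Hox genes, the patterning factors of the body axis that stay silent in cerebellar neurons, 15 were lower (38.5%) with a median of -0.62 and levels of 316 CPM at P21 against 477 CPM at P12 (median over genes). With trended scaling 3 were lower and the median was -0.09. Hoxb9 had 115.6, 192, 430, 323 and 286 CPM at P21, against 262, 366, 815 and 521 CPM at P12. Its groups overlapped over all libraries, and its log2 fold change was -0.98 with TMM and -0.47 with trended scaling. Transcription factors of other lineages behaved alike, with 43 of 112 lower (38.4%) and a median of -0.59, against 13 lower and a median of -0.08 with trended scaling. Among them Lhx2 (-1.09), Foxa1 (-1.04) and Gsx1 (-0.95) were lower under both scalings, and Sox9 was the only member called higher with TMM.

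These counts moved with single libraries: 1 to 34 Hox genes and 4 to 81 of the transcription factors were lower when 1 library was left out, and lay at the low end without P12 replicate 1 (3 and 10), 2 (1 and 5) or 3 (1 and 4) and at the high end without P12 replicate 4 (34 and 81). Without P21 replicate 3 or 5, 28 and 24 Hox genes were lower, and without P21 replicate 1, 17 of the transcription factors were. The replicate block called 38 Hox genes and 97 of the transcription factors lower, and 2 of the transcription factors higher. With replicates 1 and 2 summed, 1 Hox gene and 4 of the transcription factors were lower. Wnt, Bmp, Fgf and retinoid signalling genes gave 15 lower (22.7%) and 2 higher (3.03%) of 66 with TMM. They gave 7 and 4 with trended scaling, 33 and 3 with the block, and 3 and 0 with replicates 1 and 2 summed. H3K27me3 peaks in at least 2 P12 libraries lay at 54 of the list's 67 genes. Among all 3927 tested TSS with such peaks 772 were lower, a closer reference for the 22.7% than all TSS. Lower members of that list numbered 5, 4 and 3 without P12 replicates 1, 2 and 3, 25 without P12 replicate 4 and 7 without P21 replicate 1. The growth factor gene Fgf5 (0.91) was among the higher members, of which 1 was called without P12 replicate 3 and none without P12 replicate 4 or P21 replicate 1. Wnt7a, the member with the smallest p, had 13.6, 18, 30.4, 35.3 and 33.4 CPM at P21, against 96.4, 81.7, 265 and 176 CPM at P12, without overlap and with a log2 fold change of -2.66, where the list's median was -0.46. The clustered protocadherin genes, which encode neuronal identity at the cell surface, gave 0 calls of 53 (2 lower with trended scaling and 3 with the block), and the ribosomal protein genes 0 of 26.

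Markers of other cerebellar cells were marked in part. At the unmarked level were 5 of 18 astrocyte, 1 of 16 oligodendrocyte and 6 of 14 Purkinje cell markers at P21, and 6, 1 and 6 of them at P12. H3K27me3 peaks in at least 2 libraries lay at 10, 9 and 5 of these markers at P21 and at 6, 9 and 5 at P12. Over the 18 markers of astrocytes and Bergmann glia the summed level was 1082 to 1819 CPM per library at P21 and 1154 to 1909 CPM at P12, and none of the tested markers was at 0 in any of the 9 libraries. 3 of 16 tested members rose (18.8%, against 2.05% of all TSS tested): Sox9, the intermediate filament gene Vim (0.94) and Hopx (0.87). Hopx, a marker of Bergmann glia and their precursors, did not pass with trended scaling, which gave 1 lower and 2 higher. Without P12 replicate 1 or P21 replicate 3, 1 of the 3 was called, and without P12 replicate 4 a pair of astrocyte markers was lower. Oligodendrocyte markers gave 2 lower of 16 (12.5%, Nkx2-2 and Olig2) and markers of microglia and vessels 1 lower of 19 (5.26%, Flt1). Of all TSS tested 5.54% were lower. Olig2 and Flt1 did not pass with trended scaling (log2 fold changes of -0.19 and -0.06, adjusted p of 0.46 and 0.899 by edgeR). Purkinje cell markers gave 1 higher of 10 (10%, Pcp4, with a log2 fold change of 1.40). Interneuron markers gave 4 lower (25%) and 1 higher (6.25%) of 16. Prkcd (-1.66), Lgi2, Tfap2a and Pax2 fell, and Kit, the receptor of molecular layer interneurons, rose with a log2 fold change of 1.08. Trended scaling gave 2 lower and 1 higher, and Pax2 did not pass (-0.09). The list for unipolar brush cells and nuclear neurons gave 4 lower of 12 (33.3%: Lhx2, Calb2, Eomes and Lmx1a). With trended scaling 3 were lower, and Lmx1a did not pass (-0.10). Of the 4 granule cell markers with enough reads, Pax6 fell by 0.87 on the log2 scale, with 24.7 ± 12 CPM at P21 and 45.9 ± 8.29 CPM at P12 (SD, n = 5 and 4), and missed the threshold without P12 replicate 1, 2 or 3 or P21 replicate 2 or 3 (edgeR adjusted p of 0.0675 to 0.187).

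The summed level over the 12 unipolar brush cell and nuclear markers was 908 to 1925 CPM at P21 and 1320 to 3004 CPM at P12, and over the 16 interneuron markers 1942 to 3760 CPM and 2467 to 4822 CPM. For oligodendrocytes it was 1116 to 2197 CPM and 1631 to 3072 CPM, for microglia and vessels 1388 to 2114 CPM and 1578 to 2564 CPM, and for Purkinje cells 762 to 1507 CPM and 1080 to 1952 CPM. All of these ranges overlap between stages. Whether other nuclei passed the sort in different shares, and whether that touches the calls above, was not tested. Without P12 replicate 1, 2 or 3 no oligodendrocyte, microglia or vessel marker was called lower, and 1 each was in the interneuron and unipolar brush cell lists. Without P21 replicate 2 these last lists also held 1 each, and without P21 replicate 1 there were 0 vessel, 1 oligodendrocyte and 2 brush cell calls. Without P12 replicate 4 or P21 replicate 3, 4 oligodendrocyte markers were lower. The replicate block called 6 oligodendrocyte, 3 microglia and vessel, 8 interneuron and 8 unipolar brush cell and nuclear markers lower. It also called 2 astrocyte, 2 Purkinje cell and 2 granule cell markers lower. Higher with the block were 4 astrocyte, 2 Purkinje cell, 2 interneuron and 1 of the unipolar brush cell and nuclear markers.

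Late losses had been highly marked in progenitors, and late gains had not. Cells of P7 came from a density gradient in place of a sort and had a shorter sonication, so their levels are given as values only, from a fit of all 14 H3K27me3 libraries. The 939 TSS lost late had median levels of 443 CPM at P7, 94.7 CPM at P12 and 34.6 CPM at P21, and the 348 gained late 21.1, 26.6 and 50.5 CPM, where all tested TSS had 20.9, 26.1 and 28.2 CPM. In the highest decile of TSS by P7 level, 38.7% were lower at P21 than at P12 and 0.118% higher. In the next decile 12.7% were lower and 1.53% higher, and in the lowest 7 deciles no more than 0.413% were lower while 1.42% to 3.36% were higher. Those 7 deciles had median P7 levels of only 5.71 to 30.1 CPM. With so little mark to lose, few of their TSS could be called lower, so part of this contrast is fixed by the level. The P7 libraries take no part in the contrast of P21 with P12. With trended scaling 488 of the 1695 TSS in the highest decile were lower and 35 higher.

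**Figure D4:**
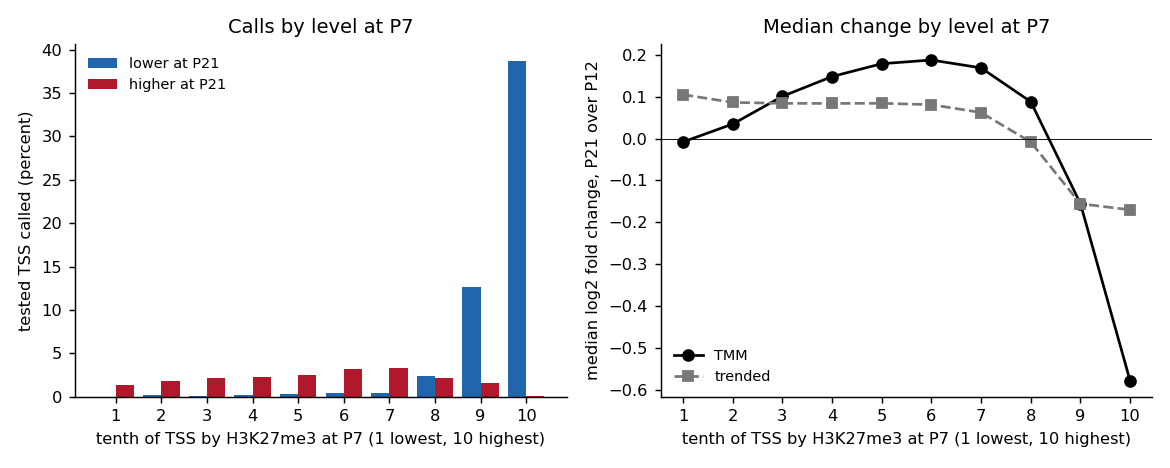
TSS were put in 10 equal groups by H3K27me3 at P7, and bars give the percent called lower or higher at P21 against P12; lines give the median log2 fold change with TMM (solid) and trended scaling (dashed). Losses concentrate in the highest group (38.7%), where the median was -0.58 with TMM and -0.17 with trended scaling, and gains with TMM were most frequent in the seventh group (3.36%; with trended scaling in the ninth, with 90 TSS).

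Single genes followed several courses over the 3 ages. The contrasts with P7 share the P12 or P21 libraries with the contrast above and are given beside it. Isolation and sonication also differ between P7 and the later ages, so age and preparation cannot be told apart in them. Nptx1 was at 759 ± 209.6 CPM at P7 (SD, n = 5) with a log2 fold change of -3.32 at P12 and -6.26 at P21, both relative to P7. Grin2c was at 745 ± 118 CPM with -2.65 and -5.12, and Wnt7a at 906 ± 296 CPM with -2.95 and -5.53. The measured levels of these genes were far lower in the P12 than in the P7 libraries, and lower again at P21. Pcgf5 differed, with a log2 fold change of 0.97 at P12 and -0.39 at P21 relative to P7, so that its highest level was at P12. Among gains, Dclk1 was at 24.8 ± 6.51 CPM at P7 with 0.33 at P12 and 2.01 at P21, Mycn at 7.88 ± 5.69 CPM with 0.95 and 2.47, and Egfr at 22.5 ± 9.54 CPM with 0.09 and 1.46. For Dclk1, Mycn and Egfr the difference between P12 and P7 did not pass the threshold (BH-adjusted p = 0.38, 0.067 and 0.84 by edgeR). Kit and Psat1 were already higher at P12 than at P7, with log2 fold changes of 1.61 and 2.19, and reached 2.72 and 3.6 at P21.

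No change in H3K4me3 was called beside these changes in H3K27me3. With 2 libraries per stage, edgeR passed 0 of 20748 TSS (0%) between P21 and P12, while 206 had an unadjusted p below 0.05. A fit of the 4 libraries of these stages alone also passed 0, with 643 below that unadjusted level. The median H3K4me3 log2 fold change was 0.01 at 865 of the TSS that lost H3K27me3 and 0.00 at 330 of those that gained it, against -0.01 over all 15722 tested for both marks. At Nptx1 H3K4me3 was 107 and 104.5 CPM in the P21 libraries, against 101 and 83 CPM at P12, and at Mycn 61.6 and 53.4 CPM against 68.7 and 60.5 CPM. With 2 libraries a stage a modest change in H3K4me3 at single genes would not be detectable.

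Promoters with late loss often carried H3K4me3 already at P12; the shares that follow are described without a test. At P12, 28.4% of the 938 lower TSS with a position had an H3K4me3 peak in both libraries within 1 kb. The share was 7.63% of the 3041 TSS with an H3K27me3 peak at P12 that were not called, and 16.2% of all tested TSS. At higher TSS the share was 11.8%. Peaks of both marks, H3K27me3 in at least 2 libraries and H3K4me3 in both, lay at 6.29% of the lower TSS at P21, against 21.2% at P12, since H3K27me3 peaks were present at 57.2% of them at P21 and 82.3% at P12 while H3K4me3 peaks were at 26.5% and 28.4%. At higher TSS both marks lay together at 7.49% at P21 and 3.75% at P12. P21 has 5 libraries in which a peak could be found and P12 has 4. Peaks were sought at the annotated gene start, whereas reads were counted at the table's own TSS, which may lie elsewhere. Nr4a1, with 120 CPM of H3K27me3 at P12, had no H3K27me3 peak at its annotated start. Kcna2, with 68.7 and 94.2 CPM of H3K4me3 at P12, had no H3K4me3 peak there. The shares of peaks may thus describe another site than the counts at some genes. Grin2c, Nptx1 and Wnt7a had H3K27me3 peaks in 0 of 5 P21 and 4 of 4 P12 libraries, and H3K4me3 peaks in all 4 libraries.

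**Figure D5:**
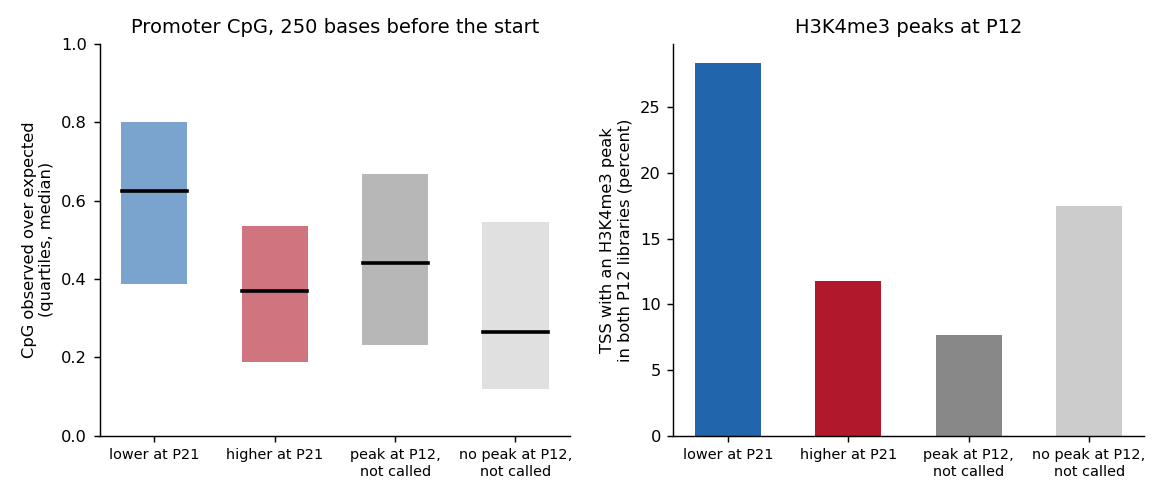
Left, observed over expected CpG in the 250 bases before the start (boxes, quartiles; line, median) at TSS lower or higher at P21 than at P12 and at TSS not called with or without a P12 peak; right, percent of the same groups with an H3K4me3 peak in both P12 libraries. Lower TSS stand highest in both panels, with a median of 0.63 and a share of 28.4%, against 0.44 and 7.63% at marked TSS that were not called.

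The number and extent of peaks over the genome did not differ detectably when all 9 libraries were pooled. The tests below do not account for the input arrangement, so they could hardly detect a difference within either arrangement. Libraries had 6440 to 50222 peaks covering 24.5 to 226 Mb at P21 and 6432 to 37621 peaks covering 25.8 to 199 Mb at P12 (exact two-sided permutation tests, p = 0.444 and 0.619, n = 5 and 4, smallest possible p 0.00794). The range went with the input arrangement, and own-input libraries also had more reads. With a shared input, libraries held 6440 and 6442 peaks at P21 and 6432 and 8370 at P12, and with their own inputs 38421 to 50222 and 27858 to 37621. On average there were 6441 and 7401 peaks at P21 and P12 with a shared input and 43548 and 32740 with own inputs, so the direction differed between arrangements. The inputs held peaks too, 301 and 256 in the shared inputs of P21 and P12 and 9159 to 86149 in the own inputs. Without peaks that overlap a peak of their input, P21 libraries held 6434 to 37314 peaks covering 24.4 to 172 Mb. P12 libraries held 6427 to 24286 covering 25.8 to 74.4 Mb (exact two-sided permutation tests, p = 0.397 for number and extent). Of these peaks, own-input libraries held 32640 to 37314 at P21 and 20665 to 24286 at P12, without overlap between stages. Shared-input libraries held 6434 and 6435 at P21 and 6427 and 8365 at P12. Annotated TSS with a peak numbered 1345 to 5145 per library at P21 and 1979 to 5648 at P12 (exact permutation p = 0.825). Peaks at TSS were counted here and above without removing those that overlap an input peak.

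Some losses lay in runs along the chromosomes, for which no number expected by chance was computed. Runs of at least 3 neighbouring tested TSS called in the same direction numbered 23 for losses, with 77 TSS, and 4 for gains, with 12 TSS. The longest, on chromosome 2 over 276 kb, held Nkx2-4, Nkx2-2os, 6430503K07Rik, Nkx2-2 and Pax1, transcription factors of ventral neural tube and sclerotome with their neighbours, with a median log2 fold change of -0.75 that became -0.31 with trended scaling, where 1 of the 5 was called. Runs of 4 lay at Wnt6, Wnt10a, Cdk5r2 and Fev, at Des, Gm15179, Speg and Asic4, and at Slc45a3, Mfsd4a, Cdk18 and Lemd1 on chromosome 1, and at Lrrc26, Grin1os, Grin1 and Uap1l1 on chromosome 2. In the Des, Slc45a3 and Grin1 runs all 4 members were also called with trended scaling, with TMM medians of -1.94, -1.42 and -1.21. Grin1 and its antisense partner Grin1os start close together, and reads between them cannot be assigned to one of the pair. A further run of 4 predicted genes on chromosome 8 (Gm25018, Gm26391, Gm25212 and Gm23284) was called with TMM but not with trended scaling.

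By chromosome, the share of tested TSS lower at P21 ran from 3.40% to 9.14% over the 19 autosomes and the share higher from 1.18% to 4.14%. The X chromosome was below both ranges, with 1.19% lower and 0.119% higher of 837 TSS. Its tested TSS had a median level of 32.3 CPM over the 9 libraries, a level within 0.1 CPM of the lowest autosome's, chromosome 10, where 5.00% were lower and 2.11% higher. A median does not show how many highly marked TSS a chromosome holds, and the cause of the low shares on the X chromosome was not tested.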

How the data were processed

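H3K27me3 and H3K4me3 were measured by ChIP-seq. The table of read counts per TSS is used as deposited: raw whole-number counts keyed by gene ID, and its window around the TSS, the aligner and the peak caller's settings are not stated in any source used here. The submitters' processing notes name HOMER 4.11, ChIPseeker 1.30.3 and the build mm10. Deposited peak lists carry a score for each peak from the authors' processing, and only the peak positions were used. Gene names and starts came from the RefSeq annotation of GRCm38.p6 (23992 of 24045 IDs had a symbol), and 53 IDs without one stayed in the tests.

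Counts of the 9 H3K27me3 libraries were tested with edgeR 4.0.16 in R 4.3.3 (filterByExpr, TMM, robust quasi-likelihood test, stage plus input arrangement, BH adjustment over all TSS tested, threshold 0.05). H3K4me3 was fitted over the 7 libraries of 3 ages, and the ages P21 and P12 were contrasted. CPM is relative to the TMM-scaled total. Trended scaling used loess offsets from limma 3.58.1 on mean log count. DESeq2 1.42.0 was an alternative, and bedtools 2.31.1 gave overlaps within 1 kb of a start. Analyses were tested on simulated data. The p-values rest on the spread between libraries, and the number of reads, 264093 to 1052849 per library, limits calls at weakly marked TSS.

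Replicates of the same number deviated together, with correlations of 0.487, 0.358, 0.663 and 0.601 for numbers 1 to 4, so values with the replicate number as a block (P21 replicate 5 left out) are given where they move a count by over 1.5 times. Replicates 1 and 2 also correlated across numbers (0.518 and 0.385). They have the same input arrangement and the fewest reads of their stage. These cannot be told apart, and the cause of the correlation was not tested. Named genes were the 12 largest falls and 12 largest rises without overlap between stages and with at least 10 CPM in the higher stage, up to 4 called members of each list by p, the 4 highest TSS that moved to or from the unmarked level, and the longest runs, and predicted and small RNA genes were passed over. Other list members are named with their values where a count is described. The comparison, the 19 lists and the promoter motifs were chosen with earlier results of these data known. Lists are described by counts and medians, without set tests. A few TSS that these rules name are not reported here.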

Additional observations from a re-analysis of the deposited data

Results flagged for a closer look

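Among 158 groups of named TSS and libraries examined for a single library far from the rest, 9 held one, where chance gives about 1 in 20. In 4 of the 9 that library was P12 replicate 3, each time the highest of the 4 P12 libraries: Kcna2 at 159 CPM, Bdnf at 349 CPM, Hoxc5 at 456 CPM and Hoxb7 at 863 CPM. P12 replicate 3 also had the highest contrast of all 9 libraries, 12.9. At P21, replicate 1 was lowest for Cbx7 with 10.2 CPM and stood apart for Calb2 with 44.2 CPM, replicate 2 was lowest for Cdon with 24 CPM, replicate 3 was highest for Hopx with 139 CPM and replicate 5 highest for Pax6 with 45.7 CPM. Without the library that stood apart, Kcna2, Bdnf and Cdon were still called lower at P21 by edgeR. Hoxb7 and Hoxc5 were not (adjusted p = 0.178 and 0.111 without P12 replicate 3), nor was Hopx called higher (0.176 without P21 replicate 3). The calls of Pax6, Cbx7 and Calb2 held without their own outlying library and were lost without P12 replicate 3 (0.187, 0.164 and 0.571).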

How the results depend on the processing

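No named TSS changed direction under any alternative in which it was tested. Against 939 lower and 348 higher TSS, the lower count moved by over 1.5 times with TMM computed on the weakly marked TSS (562), with all 14 libraries in the fit (553), with the replicate block (1819), with replicates 1 and 2 summed (608, chosen after seeing the data), with replicates 3 and later only (319), with stage alone (221) and with a log2 change of at least 1 required (518). The higher count moved with DESeq2 (135), TMM on weakly marked TSS (163), only TSS with a peak (921), all 14 libraries (166), library totals (784), no filter (206), the replicate block (656), the block with trended scaling (657, also added after seeing the data), replicates 1 and 2 only (94) or summed (125), replicates 3 and later only (36), stage alone (44) and a log2 change of at least 1 (103). Leaving out 1 library gave 420 to 1314 lower and 178 to 465 higher TSS. All 221 and 44 TSS of the fit with stage alone were among the 939 and 348. Of 74 named genes, 66 kept their call with trended scaling and 8 missed the threshold, 67 and 7 did with DESeq2, and the replicate block lost none of the 73 it tested. With stage alone 41 kept it and 33 did not, and with replicates 3 and later only 40 and 34. The causes were not tested, beyond the smaller number of libraries in the fits that leave some out. Fewer reads in replicates 1 and 2 limit what is detectable at weakly marked TSS.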
